A study of Astyanax mexicanus with 6 samples.

Results

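The eye field and retinal progenitor regulators described here are homeobox genes of the rx, PAX6, six3, six6 and vsx families. They were found by gene name, with case and the suffix that marks several copies ignored. Those described here are 7 of the 25271 gene identifiers in the RNA table, and all counts of members are over these 7. They are PAX6, six3b, six6b, 2 copies named rx1, rx3 and vsx1. The first rx1 copy is ENSAMXG00000015083 on scaffold KB872270.1 and the second is ENSAMXG00000021639 on scaffold KB882097.1. No identifier carried the name rx2, rax or rax2. A further gene is spelled pax-6 (ENSAMXG00000013008) and falls outside the naming rule. Its file description is Pax-6-like, and the RefSeq protein it cites belongs to pax6a in the RefSeq gene table. The RefSeq protein cited for the second rx1 copy belongs to the gene named rx1 there, and no such link was given for the first copy or for PAX6. The RefSeq gene table also lists a gene named rx2. Whether the first rx1 copy corresponds to it was not tested, so the copies are told apart by identifier only.

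Eyes were dissected at about 54 hours after fertilization from wild-type cave morph and wild-type surface morph embryos of Astyanax mexicanus, the Mexican tetra. Each morph has 2 libraries of poly(A) RNA and 1 library of whole-genome bisulfite sequencing (WGBS), a method that converts cytosines lacking methylation and so tells them from methylated ones. Nothing in the labels ties the RNA libraries to separate groups of embryos. The p-values therefore describe variation from library to library, and this may be technical.

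The eye field is the patch of anterior neural plate from which both retinas arise, and it is marked by joint expression of pax6, six3, six6 and rx genes. These transcription factors later act in dividing retinal progenitors, and some stay on in neurons: vsx1 in bipolar interneurons, pax6 in amacrine and ganglion cells, and rx genes in photoreceptors. In zebrafish rx3 is required for the optic vesicles to form, and it is also expressed in the hypothalamus. Cave embryos form small eyes that degenerate later, a loss for which the study asks about an epigenetic mechanism.

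The RNA totals were 132739496 and 117742250 counts in cave-labelled libraries and 146907747 and 154476181 in surface-labelled ones. Retinal identity was checked with marker lists. Over all genes tested, edgeR called 2.77% higher and 0.407% lower in cave-labelled libraries, the background for the counts called below. All 24 measured photoreceptor genes passed the edgeR threshold as higher in cave-labelled libraries, with summed levels of 6128 and 6782 CPM (counts scaled to a common library total) there, against 164 and 175 CPM in surface-labelled ones, where rho and rom1a were at 0 in replicate 1. Whether the RNA labels are exchanged was not tested, and the authors' deposited table names no direction, so RNA libraries are called cave-labelled and surface-labelled throughout. Lens genes (4 of 15 called higher, cryaba and crybb1l1 at 0 in some libraries) summed to 485 and 517 CPM in cave-labelled libraries, against 124 and 85.4 CPM in surface-labelled ones. Pigment epithelium genes (6 of 13 called higher) summed to 3878 and 5484 CPM, against 1789 and 1303 CPM. Müller glia genes (2 of 8 called higher) summed to 1345 and 1346 CPM, against 649 and 772 CPM. Ganglion cell genes (1 of 10 called higher) overlapped in their sums, at 668 and 825 CPM, against 519 and 742 CPM. Gene by gene, 8 of these 10 had both cave-labelled libraries above both surface-labelled ones and 1 the opposite order. Over all genes tested these shares were 25.4% and 27.7%. The median log2 fold change of the ganglion cell genes was 1.33. Amacrine and horizontal cell genes (1 of 11 called higher) summed to 973 and 1278 CPM, against 720 and 948 CPM. Of these 11, 3 had both cave-labelled libraries above both surface-labelled ones and 3 the opposite order, with a median log2 fold change of 0.13. Blood genes (5 found, 0 called) summed to 169 and 212 CPM, against 268 and 263 CPM. Skeletal muscle genes (11 found, 0 called) overlapped, at 833 and 97.7 CPM in cave-labelled libraries, against 278 and 303 CPM in surface-labelled ones. Replicate 2 of the libraries labelled cave stood apart from replicate 1 in this skeletal muscle list and in the epidermis and cornea, periocular mesenchyme and bipolar cell lists. Epidermis and cornea genes (15 found, 0 called) summed to 11315 and 1159 CPM in replicates 1 and 2 labelled cave, against 9135 and 11290 CPM in surface-labelled ones. Periocular mesenchyme genes (13 found, 0 called) summed to 3064 and 509 CPM, against 3343 and 3453 CPM. Bipolar cell genes (4 of 11 called higher) summed to 514 and 935 CPM, against 317 and 303 CPM. Forebrain and hypothalamus genes (26 found, 1 called lower, avp at 0 in replicate 2 labelled cave) summed to 455 and 643 CPM, against 660 and 966 CPM. Their median log2 fold change was -1.75. Of these 26, 21 had both cave-labelled libraries below both surface-labelled ones and 1 the opposite order, beside 27.7% and 25.4% of all genes tested. The part of these differences in the results below was not tested. In whole-eye RNA, fewer cells of a type and less RNA per cell cannot be told apart.

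All 7 genes were expressed in every library and passed the filter on low counts. Their fitted log2 fold changes, labelled cave over labelled surface, were positive in 7 of 7, between 0.28 for six6b and 1.90 for PAX6, with a median of 1.15 beside 0.02 over the 22850 genes tested. At a Benjamini-Hochberg adjusted p under 0.05 edgeR called 0 of the 7 in either direction, where it called 2.77% of all genes higher and 0.407% lower. At an unadjusted p under 0.05 edgeR held 3 of the 7, PAX6, the first rx1 copy and rx3, all higher, beside 11.9% of all genes higher and 6.40% lower at that level. DESeq2 called 2 of the 7 higher, PAX6 and the first rx1 copy, and called 6.61% of all genes higher and 3.14% lower. The same 3 genes as in the unadjusted edgeR set had both libraries labelled cave above both labelled surface in CPM, a pattern held by 25.4% of all genes tested, with 27.7% in the opposite order.

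**Figure D1:**
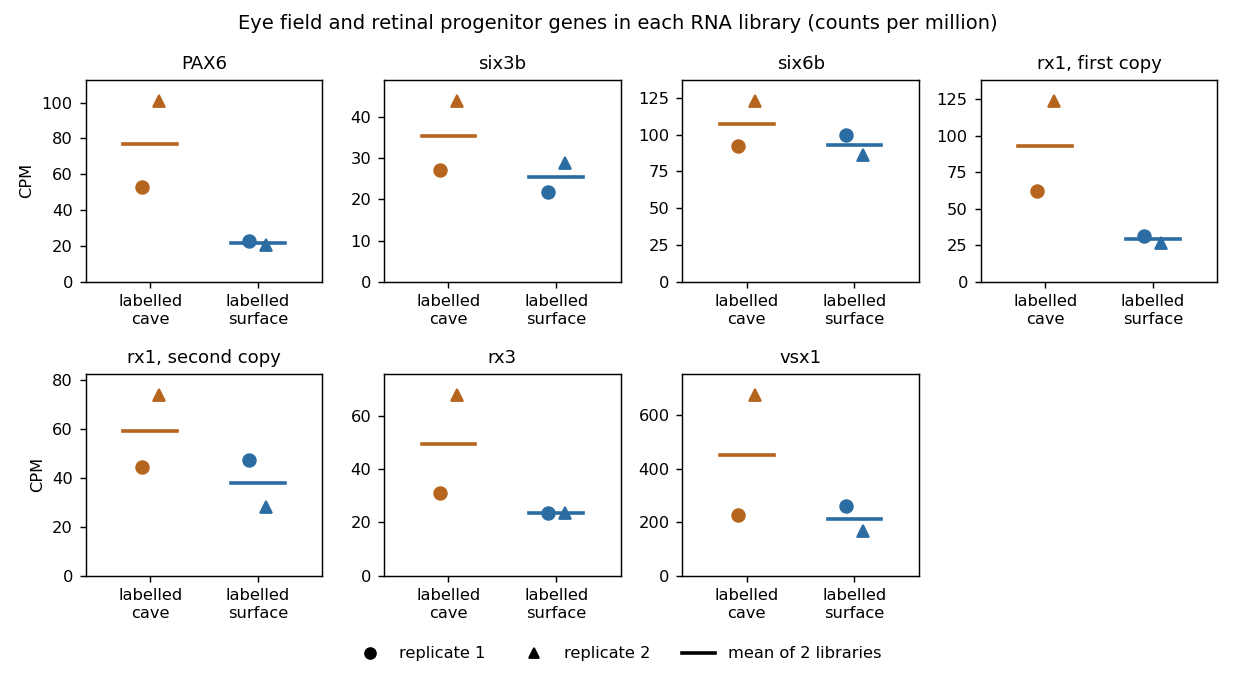
CPM of each of the 7 genes in every RNA library, in 1 panel per gene with the libraries labelled cave on the left. Circles are replicate 1, triangles replicate 2 and bars the mean of 2 libraries. PAX6, the first rx1 copy and rx3 have both points labelled cave above both labelled surface, and the triangle labelled cave is the highest point in all 7 panels.

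PAX6 (ENSAMXG00000001228, scaffold KB872234.1, 21 to 19939, plus strand), a paired-domain and homeodomain factor of eye field, lens and retina, had the largest fold change of the 7. The counts were 7004 and 11850 in cave-labelled libraries, against 3381 and 3185 in surface-labelled ones. In CPM this was 52.8 and 100.6 in cave-labelled libraries, against 23.0 and 20.6 in surface-labelled ones, and the groups did not overlap. The log2 fold change was 1.90 (SE 0.37; edgeR, Benjamini-Hochberg adjusted p = 0.0685), short of the threshold. DESeq2 gave an adjusted p of 0.00125. In the authors' deposited table PAX6 has a log2 fold change of -1.70 with an adjusted p of 0.00123. Set against the count columns, this sign runs labelled surface over labelled cave. It carries the same open question about the labels, and the authors' intended direction is not stated.

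The gene spelled pax-6, named because its description is that of a second Pax6 gene and chosen after its values were seen, had a smaller fold change, also without overlap between the groups. It had 361 and 713 CPM in cave-labelled libraries, against 331 and 286 CPM in surface-labelled ones (log2 fold change 0.88, SE 0.38; edgeR, Benjamini-Hochberg adjusted p = 0.30). PAX6 took a larger share of the reads assigned to the pair in both cave-labelled libraries. It made up 12.7% and 12.4% of their summed counts in cave-labelled libraries, against 6.50% and 6.73% in surface-labelled ones. The exact 95% Clopper-Pearson intervals, for counting error only and with each read pair taken to give 2 counts, lay between 12.1% and 13.1% for the libraries labelled cave and between 6.20% and 7.06% for those labelled surface. The mean share was 12.6% ± 0.26 in cave-labelled libraries and 6.62% ± 0.17 in surface-labelled ones (SD, n = 2 each). The share does not depend on library scaling. PAX6 starts at base 21 of its scaffold, so its annotated span may be incomplete, and the pair may share reads. Neither was tested. Replicates 1 and 2 labelled cave, which differed in the CPM of both genes by about the same factor, gave nearly the same share. A two-sided exact permutation test of 2 against 2 libraries cannot go below p = 0.333, which is its value here (adjusted p = 0.667 over the 4 shares computed).

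The rx genes encode retinal homeobox factors, and the 2 genes named rx1 did not have the same profile. The first copy had 8228 and 14562 counts in cave-labelled libraries, against 4633 and 4106 in surface-labelled ones. This was 62.0 and 123.7 CPM in cave-labelled libraries, against 31.5 and 26.6 CPM in surface-labelled ones, with no overlap. The second copy had 44.2 and 73.8 CPM in cave-labelled libraries, against 47.2 and 28.2 CPM in surface-labelled ones, so that replicate 1 labelled cave lay between the libraries labelled surface. The log2 fold changes were 1.76 for the first copy (SE 0.39; edgeR, Benjamini-Hochberg adjusted p = 0.0919) and 0.71 for the second (SE 0.41; adjusted p = 0.425).

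Of the counts summed over both rx1 copies, the first took 58.4% and 62.6% in cave-labelled libraries, against 40.1% and 48.5% in surface-labelled ones. The first copy was thus the more counted one in both libraries labelled cave and the less counted one in both labelled surface. The mean share was 60.5% ± 3.02 in cave-labelled libraries and 44.3% ± 5.99 in surface-labelled ones (SD, n = 2 each; two-sided exact permutation test, p = 0.333, the smallest possible). The copies may share reads through like sequence, and the counting rule for such reads is not stated in the labels.

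Another gene of this family, rx3 (ENSAMXG00000008320, KB882096.1, 1172031 to 1176184, minus strand), had 30.9 and 67.7 CPM in cave-labelled libraries, against 23.5 and 23.7 CPM in surface-labelled ones. Its libraries labelled surface were nearly equal, and the difference between groups came with a wide spread in the pair labelled cave. The log2 fold change was 1.15 (SE 0.41; edgeR, Benjamini-Hochberg adjusted p = 0.226; DESeq2, adjusted p = 0.158). Among the 3 rx genes, rx3 held 22.5% and 25.5% of the summed counts in cave-labelled libraries and 23.0% and 30.2% in surface-labelled ones, so its share overlapped between groups.

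The factor vsx1 acts in bipolar interneurons of the retina. For vsx1 (ENSAMXG00000011442) the libraries labelled cave had 227 and 675 CPM, against 262 and 166 CPM in surface-labelled ones. This was the widest replicate gap among the 7 genes, with replicate 2 over replicate 1 labelled cave at log2 1.57, and replicate 1 labelled cave lay between the libraries labelled surface. The log2 fold change of 1.15 (SE 0.57) missed the threshold (edgeR, Benjamini-Hochberg adjusted p = 0.363).

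Of the 7 genes, six3b and six6b had the smallest fold changes. The eye field and forebrain repressor six3b (ENSAMXG00000004283) had 27.1 and 43.8 CPM in cave-labelled libraries, against 21.8 and 29.0 CPM in surface-labelled ones (log2 fold change 0.58, SE 0.31; edgeR, Benjamini-Hochberg adjusted p = 0.404), with replicate 1 labelled cave between the surface-labelled libraries. The progenitor factor six6b (ENSAMXG00000019356) had 92.3 and 122.6 CPM, against 100.03 and 86.0 CPM, and so overlapped (0.28, SE 0.25; adjusted p = 0.615). With an SE close to the estimate, the direction of the six6b difference is not resolved.

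**Figure D2:**
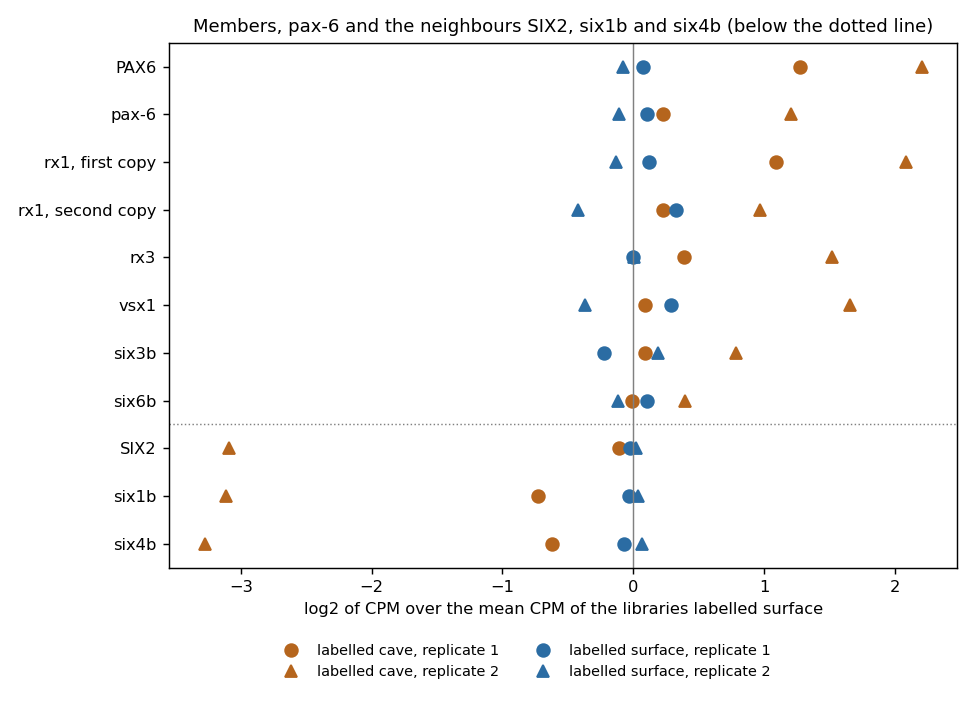
Log2 of each library's CPM over the mean CPM of the libraries labelled surface, for the 7 genes, pax-6 and the neighbours SIX2, six1b and six4b below the dotted line. Circles are replicate 1 and triangles replicate 2, with libraries labelled cave in brown and those labelled surface in blue. Replicate 2 labelled cave is the highest for each of the 7 genes and pax-6, and the lowest for SIX2, six1b and six4b.

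Related genes near six3b and six6b on the same scaffolds were lowest in that library. In scaffold order, SIX2 lies 21452 bases after six3b on KB882206.1, and six1b lies 34875 bases before six6b on KB882221.1, with six4b on the same scaffold. In vertebrates these relatives act in mesenchyme, muscle and placodes. SIX2 had 15.0 and 1.90 CPM in cave-labelled libraries, against 16.0 and 16.5 CPM in surface-labelled ones. For six1b the values were 11.2 and 2.13 CPM, against 18.1 and 19.0 CPM, and for six4b 8.12 and 1.29 CPM, against 11.9 and 13.1 CPM. None of these 3 was past the edgeR threshold (Benjamini-Hochberg adjusted p from 0.382 to 0.654). These neighbours were chosen after their values were seen.

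The fold changes of all 7 genes were larger without replicate 1 than without replicate 2 labelled cave. Replicate 2 exceeded replicate 1 labelled cave in CPM for 7 of 7 genes, by a median of log2 0.93, while 46.0% of all genes tested did so. Between the libraries labelled surface the median for the 7 genes was -0.22 (replicate 2 over replicate 1). There 2 of the 7 were higher in replicate 2, beside 66.0% of all genes tested, whose median was 0.13. Without replicate 1 labelled cave, edgeR called 6 of the 7 higher, six6b being the exception, with 12.9% of all genes called higher and 18.1% lower. Without replicate 2 labelled cave it called 2, PAX6 (log2 1.24, adjusted p = 0.00044) and the first rx1 copy (1.05, adjusted p = 0.00238), with 11.2% of all genes called higher and 8.37% lower. These calls used Benjamini-Hochberg adjustment and rest on the spread of the remaining pair, since the lone library is assumed to vary like it. Without replicate 2 rx3 stood at log2 0.36, the second rx1 copy at 0.18, six3b at 0.068, vsx1 at 0.035 and six6b at -0.052. With 1 surface-labelled library left out, whichever it was, edgeR called 0 of the 7, and 0% of all genes. The log2 fold change was then 1.14 without replicate 1 and 0.33 without replicate 2 labelled surface for the second rx1 copy, 0.40 and 0.11 for six6b, and 0.37 and 0.71 for six3b.

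**Figure D3:**
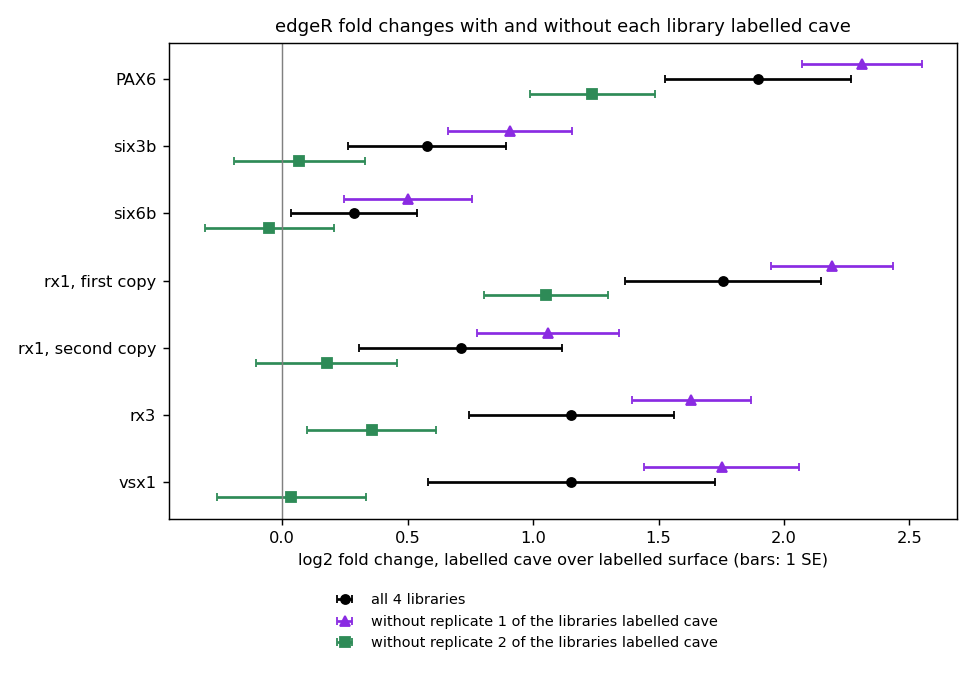
EdgeR log2 fold change, labelled cave over labelled surface, of the 7 genes with bars of 1 SE. Circles use all 4 libraries, triangles leave out replicate 1 labelled cave and squares leave out replicate 2 labelled cave. The squares of PAX6 and the first rx1 copy stay above 1, and those of six3b, six6b and vsx1 lie near 0.

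DNA methylation was compared next, as the percentage of cytosine calls read as methylated in the authors' upstream region and gene body of each gene. A call needed a difference of 10 percentage points or more and a Benjamini-Hochberg adjusted p under 0.05 in Fisher's exact test (two-sided). Since each morph has 1 WGBS library, the test is between libraries and not between morphs, and calls on the same read are not independent. Intervals are exact 95% Clopper-Pearson intervals and cover counting error only. Each value of cave WGBS is even, so tests were repeated with its calls divided by 2. The intervals use the undivided calls, so those of cave WGBS may be too narrow.

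Upstream methylation differed widely between the genes. Regions before six3b, six6b and vsx1 were nearly free of methylation. The upstream region of six3b had 2.05% of 6158 calls methylated in cave WGBS and 2.39% of 5656 in surface WGBS, and that of six6b had 1.67% of 5150 and 1.35% of 6508. For vsx1 the values were 1.90% of 2110 calls (cave WGBS) and 1.85% of 2485 (surface WGBS). Thus 3 of the 6 genes with upstream calls were under 10% in both libraries, as were 16.5% of all upstream regions tested. The median of all regions was 72.7% in cave WGBS and 70.5% in surface WGBS. The upstream region of pax-6 was in the same low range, at 1.98% and 1.68%.

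The rx genes carried methylation upstream. The region before rx3 had 85.7% of 224 calls methylated in cave WGBS (80.4% to 90.0%) and 87.4% of 191 calls in surface WGBS (81.9% to 91.8%), with overlapping intervals. These calls were few beside medians of 1090 (cave WGBS) and 1004 (surface WGBS) over all upstream regions tested. The upstream region of the first rx1 copy stood at 89.8% of 1020 calls in cave WGBS (87.8% to 91.6%) and 83.5% of 780 calls in surface WGBS (80.7% to 86.0%). This difference of 6.34 points was below the size set for a call (Fisher's exact test, adjusted p = 0.000262). That of the second rx1 copy was lower in cave WGBS, at 27.5% of 748 calls (24.4% to 30.9%) against 39.7% of 795 calls (36.3% to 43.2%). Its difference of -12.2 points was the 1 upstream call among the 6 genes (Fisher's exact test, adjusted p = 1.69e-06, and 0.000196 with the cave calls halved). Over all upstream regions 12.1% were called higher and 8.67% lower in cave WGBS, so 1 call in 6 is near that background. At 5 points, the first rx1 copy was also higher, beside 24.1% of all regions higher and 16.5% lower, and at any size 58.7% of regions had an adjusted p under 0.05. PAX6 starts at base 21 of its scaffold and had 0 upstream calls in both libraries, so its upstream methylation was not analysed here.

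**Figure D4:**
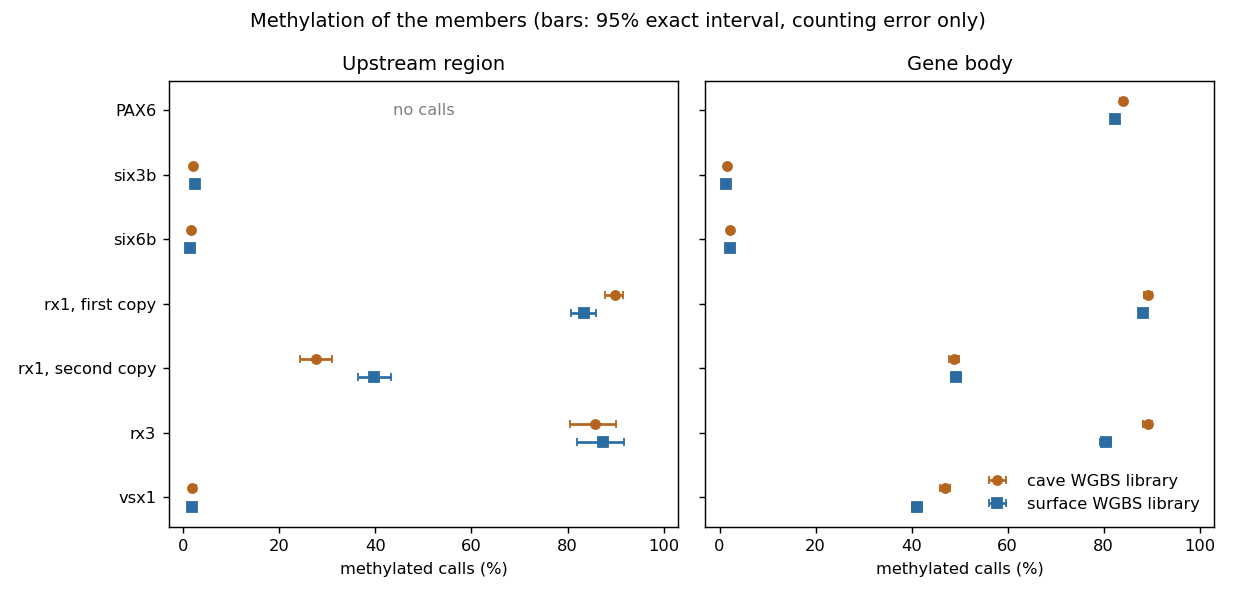
Percentage of methylated calls in the upstream region (left) and gene body (right) of the 7 genes, with the cave WGBS library above the surface WGBS library and bars for the exact 95% interval. The six3b, six6b and vsx1 regions lie near 0 upstream, rx3 and the first rx1 copy lie above 80%, and the second rx1 copy lies between 27.5% and 39.7%.

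Gene bodies were graded in a like way. The bodies of six3b (2267 bases) and six6b (2405 bases) were methylated at 1.54% and 2.15% in cave WGBS and at 1.33% and 2.14% in surface WGBS. Both were under 10% in each library, a level shared by 2.07% of the 25016 gene bodies tested. Their calls were also dense, at 3842 and 3015 calls per kilobase of gene span in cave WGBS and 4756 and 2836 in surface WGBS, beside medians of 781 and 758 over all gene bodies. The trait is not particular to these members. The SIX2 and six1b bodies stood at 2.41% and 1.65% in cave WGBS and at 1.38% and 1.02% in surface WGBS. They had 3570 and 4229 calls per kilobase in cave WGBS. The six4b body was higher, at 34.1% and 32.1%. The vsx1 body was methylated at 46.9% in cave WGBS and 41.1% in surface WGBS. The body of the second rx1 copy was near it, at 48.9% and 49.2%. Those of the first rx1 copy (89.1% and 88.2%), rx3 (89.2% and 80.4%) and PAX6 (84.0% and 82.3%) lay within the bulk of gene bodies, whose medians were 83.4% and 82.1%. The body of pax-6 stood at 22.7% and 23.3%, well below that of PAX6.

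No gene body of the 7 reached the 10-point difference for a call, where 3.15% of all gene bodies were called higher and 1.99% lower in cave WGBS. With 5 points as the size, 2 were higher in cave WGBS, beside 12.1% of all gene bodies higher and 6.62% lower. These were rx3 (8.75 points, adjusted p = 7.47e-32) and vsx1 (5.82 points, 1.44e-15; Fisher's exact test, Benjamini-Hochberg adjusted). Each stayed past the p threshold with the cave calls halved. At any size, 70.0% of gene bodies had an adjusted p under 0.05.

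Upstream methylation differences are set beside the RNA fold changes here as a description, with the RNA labels as they stand. The first rx1 copy had the larger RNA fold change of the pair. Its upstream difference of 6.34 points was below the size set for a call. The second copy had an overlapping RNA level and the called difference (-12.2 points). Over all upstream regions tested, the median absolute difference was 4.14 points. The upstream regions of six3b, six6b and vsx1 differed by at most 0.34 points between the WGBS libraries. Their log2 RNA fold changes of 0.58, 0.28 and 1.15 were not past the edgeR threshold. Without replicate 2 labelled cave these were 0.068, -0.052 and 0.035. Both rx3 and the first rx1 copy were transcribed at 23.5 CPM or more in every RNA library with over 80% of upstream calls methylated. These were 2 of the 6 genes with upstream calls, and 34.2% of all upstream regions tested were over 80% in both WGBS libraries. The share among the members is thus near that background. For rx3 this rests on few upstream calls.

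Related genes were described through 4 lists, with the members left out. Among 21 tested partners of the eye field genes, edgeR called 0 higher and 0 lower (1 and 2 at an unadjusted p under 0.05; DESeq2 called 0 and 1), with a median log2 fold change of -0.29. Those with the smallest p were the neural progenitor gene sox3 (-1.11, adjusted p = 0.0855), hmx4 (1.36, 0.146), which acts in the optic cup, the progenitor nuclear receptor gene nr2e1 (-0.60, 0.216) and the forebrain gene otx1a (-1.54, 0.293), by edgeR with Benjamini-Hochberg adjusted p. Without replicate 1 labelled cave hmx4 stood at 1.75 and otx1a at -2.81, and without replicate 2 at 0.74 and -0.96.

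Of 16 genes that pattern the optic cup, edgeR called 1 higher and 0 lower, with a median of -0.37 (DESeq2 called 2 and 1). The share of all genes called by edgeR was 2.77% higher and 0.407% lower, and by DESeq2 6.61% higher and 3.14% lower, so 1 call in 16 is near the background. The gene called was tbx5b, a dorsal retina factor, at 9.26 and 14.6 CPM in cave-labelled libraries, against 1.48 and 1.71 CPM in surface-labelled ones. Its log2 fold change was 2.99 (SE 0.41; edgeR, Benjamini-Hochberg adjusted p = 0.0279), and 3.31 without replicate 1 and 2.51 without replicate 2 labelled cave. Its paralog tbx5a (1.49, adjusted p = 0.113), the retinoic acid enzyme gene aldh1a3 (1.21, 0.161) and the optic stalk factor vax1 (-1.33, 0.135) were not past the threshold in edgeR. DESeq2 called tbx5a and vax1 (adjusted p = 0.0115 for tbx5a and 0.00546 for vax1).

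Of 35 progenitor, neurogenic and Notch pathway genes, edgeR called 0 higher and 4 lower, with a median of -0.40 (DESeq2 called 1 and 9), where 0.407% of all genes were called lower by edgeR and 3.14% by DESeq2. The 4 were the Delta ligand genes dla and dlb and the Notch receptor genes notch1b and notch3. The other Notch receptors and ligands of the list, notch1a, notch2, dlc, dld, jag1a, jag1b and jag2b, did not pass, with log2 fold changes from -1.07 for jag1a to 0.16 for dlc. The ligand gene dlb had 63.7 and 57.7 CPM in cave-labelled libraries, against 158 and 183 CPM in surface-labelled ones, which is -1.41 on the log2 scale (SE 0.18; edgeR, Benjamini-Hochberg adjusted p = 0.0242). On the log2 scale the ligand gene dla fell by 1.17, the receptor gene notch1b fell by 1.17 and the receptor gene notch3 fell by 1.23 (edgeR, Benjamini-Hochberg adjusted p = 0.0404 for dla, 0.0454 for notch1b and 0.0469 for notch3). The libraries labelled cave did not stand apart from each other in these 4 genes: without replicate 1 or 2 labelled cave their log2 fold changes lay between -1.04 and -1.45. With 1 surface-labelled library left out, whichever it was, edgeR called 0 of the genes in the related lists, and 0 of all genes.

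Of 27 factors of differentiating retinal neurons, edgeR called 1 higher and 0 lower, with a median of 0.89 (DESeq2 called 7 and 1). With 2.77% of all genes called higher by edgeR, 1 call in 27 is near the background, and DESeq2 called 6.61% of all genes higher. The gene called was the rod factor nrl, at 11.4 and 17.9 CPM in cave-labelled libraries, against 2.3 and 1.37 CPM in surface-labelled ones (log2 fold change 3.06, SE 0.49; edgeR, Benjamini-Hochberg adjusted p = 0.0408). Next by p were sebox (3.70, adjusted p = 0.0583), the ganglion cell factor isl2b (2.36, 0.0606) and the photoreceptor nuclear receptor gene nr2e3 (1.58, 0.0739). For nrl the log2 fold change was 3.37 without replicate 1 and 2.58 without replicate 2 labelled cave. Without replicate 2 labelled cave the list median was 0.24, and without replicate 1 it was 1.39. The list had 22 positive and 5 negative fold changes. Positive and negative numbers were 8 and 13 for eye field partners, 7 and 9 for optic cup genes, and 8 and 27 for progenitor and neurogenic genes.

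**Figure D5:**
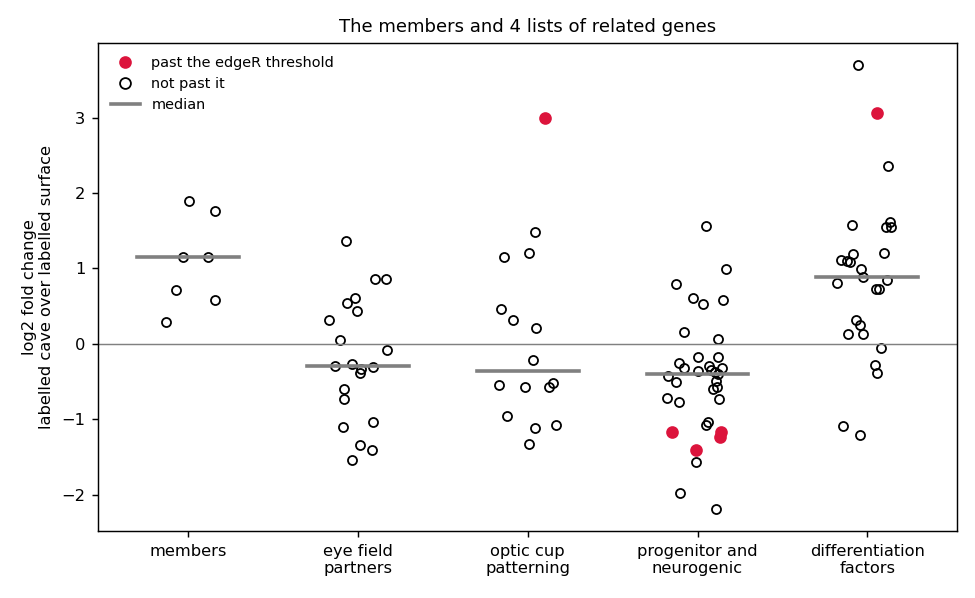
EdgeR log2 fold change, labelled cave over labelled surface, of the 7 members and of the genes in 4 related lists, 1 point per gene with the median as a grey bar. Filled red points are past the edgeR threshold: 1 in optic cup patterning, 4 among progenitor and neurogenic genes, all lower, and 1 differentiation factor.

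Genes of like pattern were sought for the rx genes among 14714 named genes that passed the filter, by the root mean square difference of centred log2 CPM over the 4 libraries. The nearest to rx3 were stk32b (0.031), tgfbr3 (0.050) and ubash3bb (0.054). Of these, stk32b had 1.34 and 3.45 CPM in cave-labelled libraries, against 0.86 and 0.96 CPM in surface-labelled ones. For tgfbr3 the values were 0.50 and 1.58 CPM, against 0.19 and 0.23 CPM. These levels lie near the 0.5 CPM added before taking logs, which narrows differences at low levels. The fitted log2 fold changes were 1.49 for stk32b and 2.39 for tgfbr3, against 1.15 for rx3. The nearest to the first rx1 copy were serpine3 (0.078), ncaldb (0.087) and rtkn2b (0.089), and to the second fam212b (0.067), ubap1lb (0.082) and kcnk7 (0.092). With 4 libraries, likeness of this kind is a description of the library profile.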

How the data were processed

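RNA values are raw gene counts as deposited by the authors. Methylation values are counts of methylated and of unmethylated calls, deposited for each gene body and each upstream region, per the file headers. A deposited table of the authors' own comparison gives log2 fold changes with standard errors, and adjusted p-values, per the file headers. Bismark, STAR, featureCounts from Subread, Trimmomatic and DESeq2 were used, per the submitters' processing notes. Not given in the sources used here: versions, genome build, upstream width, cytosine context, strand setting and duplicate removal. Even numbers made up 74.4% to 86.6% of each RNA library's counts from 1 to 30.

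Computed here were CPM (counts over the library total), edgeR 4.0.16 fits in R 4.3.3 (TMM, filterByExpr with defaults, quasi-likelihood test of 2 against 2 libraries over all 22850 genes passing) and, as an alternative, DESeq2 1.42.0. The SE is the log2 fold change over the square root of F. Regions needed 20 calls or more in both WGBS libraries and were tested with scipy 1.17.1. Likeness used log2 of CPM plus 0.5. Both fits were checked on simulated data. Groups came from the sample labels. Positions are the files' own, on scaffolds. The genes named were the 7 members described, and from each of 4 lists those past the threshold and otherwise up to 4 with the smallest p. Members, lists and tests were chosen with earlier results of these data known. A further gene that matches the naming rule is not reported here and is left out of all counts of members.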

Additional observations from a re-analysis of the deposited data

How the results depend on the processing

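Of the 7 members, edgeR called 0 higher on all 4 libraries and DESeq2 called 2. Leaving out 1 library gave 0 to 6, with 6 without replicate 1 and 2 without replicate 2 labelled cave. Size factors, no filter on low counts, halved counts and the replicate block gave 0, and no setting called a member lower. Of the 4 related lists together, 2 genes were called higher on all 4 libraries, 10 by DESeq2, 4 with no filter and 0 with the replicate block, and 0 to 35 leaving out 1 library. There 4 were called lower, 12 by DESeq2 and 0 with the replicate block, and 0 to 30 leaving out 1 library. The lists had 21 (eye field partners), 16 (optic cup), 35 (progenitor and neurogenic) and 27 (differentiation) tested genes. Of all genes, edgeR called 2.77% higher and 0.407% lower on all 4 libraries, and DESeq2 6.61% and 3.14%. The most list genes were called higher without replicate 1 and lower without replicate 2 labelled cave. Each of those fits has 1 cave-labelled library, and its shares of all genes called are given above with the members. Replicate numbers share a label and nothing shows that they pair the libraries. Differences between replicates 1 and 2 had a correlation of -0.043 across 11724 genes between the morphs. The log2 fold change of six6b was 0.50 without replicate 1 labelled cave and turned to -0.052 without replicate 2. For methylation, a size of 5 points called 1 upstream region (the first rx1 copy) and 2 gene bodies higher, a size of 20 points called 0 upstream regions lower, and coverage minimums of 10 and 100 calls and halved cave calls left each count as it was. The causes were not tested. The comparisons rest on 2 RNA libraries per group and 1 WGBS library per morph.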

Other observations

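The nearest annotated genes of rx3 and of the first rx1 copy include complexin 4 paralogs, which encode proteins of ribbon synapses in photoreceptors and bipolar cells. In scaffold order, cplx4a lies 6032 bases after rx3 on KB882096.1, and cplx4c lies 13307 bases before the first rx1 copy on KB872270.1. By strand, each complexin gene is on the upstream side of its rx gene and on the same strand. Both were called higher in cave-labelled libraries. For cplx4a the values were 179 and 130 CPM in cave-labelled libraries, against 4.04 and 3.68 CPM in surface-labelled ones (log2 fold change 5.39, SE 0.28; edgeR, Benjamini-Hochberg adjusted p = 0.00249). For cplx4c they were 21.4 and 16.9 CPM, against 0.24 and 0.35 CPM (6.11, SE 0.40; adjusted p = 0.00401). In both, replicate 1 labelled cave was the higher of its pair, unlike in the rx genes. The upstream region of cplx4a had 91.3% of 298 calls methylated in cave WGBS and 86.8% of 121 in surface WGBS. With 1 surface-labelled library left out, neither passed in edgeR (Benjamini-Hochberg adjusted p from 0.0913 to 0.0951 for cplx4a and from 0.151 to 0.179 for cplx4c). Of the 13 nearest neighbours of the 7 genes, these were the 2 past the edgeR threshold, beside 2.77% of all genes called higher and 0.407% lower. All 24 measured photoreceptor genes were also called higher, and whether nearness to the rx genes plays a part was not tested. Among the other neighbours, the upstream regions of elp4, next to PAX6, and calr3b, next to the first rx1 copy, were called higher in cave WGBS. For elp4, 76.7% of 480 calls were methylated in cave WGBS and 58.9% of 367 in surface WGBS. For calr3b this was 100% of 36 calls and 46.2% of 78, which are few. Over all upstream regions 12.1% were called higher and 8.67% lower in cave WGBS. These neighbours were chosen after the data were seen.

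PAX6 and elp4 run towards each other on scaffold KB872234.1 with 21 bases between them. The gene elp4 had 3.31 and 5.10 CPM in cave-labelled libraries, against 8.39 and 6.45 CPM in surface-labelled ones (log2 fold change -0.74, SE 0.43; edgeR, Benjamini-Hochberg adjusted p = 0.429). Its fold change and that of PAX6 had opposite signs. Without replicate 2 labelled cave, elp4 stood at -1.21 (edgeR, Benjamini-Hochberg adjusted p = 0.0204), and without replicate 1 at -0.44 (adjusted p = 0.374). With 1 surface-labelled library left out it stood at -0.54 (without replicate 1, adjusted p = 0.912) and -0.99 (without replicate 2, adjusted p = 0.918).

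Methylation was looked at in the 16 genes named from the 4 related lists. Among these 16, dlb alone had a called difference in its gene body, and it is among the 4 called lower in RNA. Over all gene bodies 3.15% were called higher and 1.99% lower in cave WGBS, so a lone call in 16 is near that background. The methylated share of the dlb body was 47.5% of 8238 calls in cave WGBS and 69.3% of 9161 in surface WGBS, a difference of -21.8 points. The upstream region of dlb stood at 6.41% and 7.67%. The gene body differences were -2.69 points for dla, -0.77 for notch1b and 0.011 for notch3. The differentiation factors isl2b and nr2e3 had called upstream differences of opposite sign: isl2b stood at 37.7% (cave WGBS) and 17.0% (surface WGBS), and nr2e3 at 36.8% (cave WGBS) and 55.6% (surface WGBS). These were the 2 upstream calls among the 16 genes, beside 12.1% of all upstream regions called higher and 8.67% called lower.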
